A study of Mus musculus with 2 samples.

Results

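Mitochondrial ribosomal proteins are the nuclear-encoded proteins of the ribosome that works inside mitochondria. They were taken here as every gene symbol in the deposited tables that begins with Mrpl or Mrps followed by a digit, without pseudogene symbols. This rule used names only and no measured value, although earlier results of these data were known when it was set. It gave 76 genes out of 13326 gene symbols, each listed in 1 row of each table, and all 76 had at least 1 FPKM in at least 1 library. FPKM are sequenced fragments corrected for transcript length and for the size of the library.

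The libraries come from livers of C57BL/6J males aged 12 weeks that had gone without food overnight. The genotypes were wild type and Adipoq-/-, which lacks the adipocyte hormone adiponectin in all tissues. RNA of 9 to 10 mice was pooled into 1 library per genotype, so there are 2 libraries, no replicate, no test across samples and no error on any difference. Adipoq itself was not analysed here, and the genotype labels were not checked against it. Genotype, pool of mice and library preparation coincide in this design and cannot be told apart.

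The mitochondrial ribosome translates the mRNAs of mitochondrial DNA, which encode core subunits of the respiratory chain and of ATP synthase. Its ribosomal RNAs come from mitochondrial DNA, whereas all of its proteins are made in the cytosol and imported. It descends from a bacterial ribosome. Part of its proteins have bacterial counterparts, and others were acquired in the mitochondrial lineage. Liver is rich in mitochondria, and hepatocytes depend on them for fatty acid oxidation, ketone synthesis and gluconeogenesis during a fast.

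The ratio used is the log2 of knockout over wild-type FPKM, each with 1 FPKM added. The median of this ratio over the 11985 genes with at least 1 FPKM in a library was -0.15, so ratios are given relative to that median unless FPKM as deposited are named. The wild-type values summed to 798170 FPKM and the knockout values to 891964 FPKM, and read depth is unknown. Hepatocyte markers summed to 65720 and 61444 FPKM, wild type first, over the 9 of 10 in the tables, with albumin and transthyretin genes among them. Markers of Kupffer cells and macrophages summed to 265 and 314 FPKM, with 9 of 11 above the all-gene median. Erythroid markers summed to 11823 and 13493 FPKM, with 5 of 5 above it. Endothelial, stellate and lymphocyte markers had ratios of summed FPKM of 1.04, 1.01 and 1.02. Cholangiocyte markers summed to 16.2 and 23.6 FPKM over 3 genes, and adipocyte markers to 30.6 and 16.5 FPKM over 3 genes. None of the markers in the tables was listed at 0. The part of these marker differences in the results below was not tested. In whole liver, fewer cells of a type and less RNA per cell cannot be told apart.

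Many of these genes start head to head with a gene on the opposite strand, so that a single short stretch of DNA lies upstream of both. Of the 76 genes, 21 (27.6%) had such a coding neighbour within 1000 bases of their start, against 12.2% of the 9559 coding genes with a position. The share was 22.4% for 76 nuclear-encoded respiratory chain subunits, with ATP synthase counted among them, and 10.3% for 78 cytosolic ribosomal proteins. The stretches between the starts of 5 such pairs are printed from the RefSeq promoter table (GRCm38.p6), because their values are set beside each other further on. Each is the part that lies outside the annotated exons of both genes, read 5′ to 3′ towards the mitochondrial ribosomal protein gene. Capitals mark CCGGAAG, or its reverse complement CTTCCGG, the core of sites for the ETS family to which the GA-binding protein belongs.

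Mrpl46 and Mrps11, chr7:78783090-78783118, minus strand: gcccctcgccggcccgcgttgcctcatgg

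Mrpl14 and Tmem63b, chr17:45686260-45686321, plus strand: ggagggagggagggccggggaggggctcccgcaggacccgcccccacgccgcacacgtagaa

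Mrpl43 and Twnk, chr19:45006443-45006557, minus strand: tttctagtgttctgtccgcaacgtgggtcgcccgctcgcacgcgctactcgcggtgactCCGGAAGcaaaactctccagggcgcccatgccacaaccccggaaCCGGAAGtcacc

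Mrps27 and Ptcd2, chr13:99344706-99344785, plus strand: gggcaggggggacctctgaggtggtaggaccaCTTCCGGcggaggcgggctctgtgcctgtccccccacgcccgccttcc

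Mrpl49 and Fau, chr19:6057786-6057843, minus strand: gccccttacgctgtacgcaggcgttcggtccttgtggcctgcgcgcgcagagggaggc

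The Mrpl46 and Mrps11 stretch lies between genes for 1 protein of each ribosomal subunit and is 29 bases long. The Mrpl43 and Twnk stretch holds the ETS core at 2 places, and Twnk encodes the helicase that replicates mitochondrial DNA. Ptcd2, opposite Mrps27, encodes a mitochondrial RNA-binding protein. The stretches of Mrpl14, Mrpl46 and Mrpl49 hold none of the 3 motifs that were searched.

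Transcripts of the family were moderately abundant in both libraries. In wild type the 76 genes had a median of 29.7 FPKM and ran from 5.76 FPKM (Mrpl47) to 151 FPKM (Mrps21). In the knockout library the median was 34.2 FPKM and the range went from 4.40 FPKM (Mrpl47) to 213 FPKM (Mrpl14). All genes above the minimum had medians of 7.30 and 6.44 FPKM. The FPKM of this family thus differed 26.2-fold within the wild-type library. The annotated transcripts of the extremes measure 3364 bases for Mrpl47 and 446.5 for Mrps21, and the lengths behind the deposited FPKM are not known. Together the 76 genes made up 0.384% of summed FPKM in wild type, against 0.392% in the knockout pool. Their order was nearly the same in both, with a Spearman rho of 0.987 across the 76 genes, which share the same libraries and are not independent replicates.

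Most members stood slightly above other genes in the knockout library. Of the 76, 65 lay above the all-gene median against 50.0% of all genes by construction, and their median relative log2 ratio was 0.28, a 1.22-fold difference, although with FPKM rescaled to equal sums the members' own median was -0.02. That scaling lowers all genes together. Under it the all-gene median was -0.28, and 35 of 76 members (46.1%) were higher in the knockout library, against 22.0% of all genes. The interquartile range of the members was 0.12 to 0.40, and that of all genes -0.18 to 0.25. At least 1.2-fold higher were 39 members (51.3%, against 23.7% of all genes), and at least 1.2-fold lower none (against 16.2%). At least 1.5-fold higher were 3 members (3.9%, against 6.73% of all genes) and at least 1.5-fold lower none (against 2.61%). No member was 2-fold apart on deposited FPKM, against 0.459% of all genes higher and 0.759% lower. The pattern was thus a small difference held by most of the family, with no more large differences than among all genes. On deposited FPKM, 52 of 76 were higher in the knockout library, against 33.1% of all genes.

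**Figure D1:**
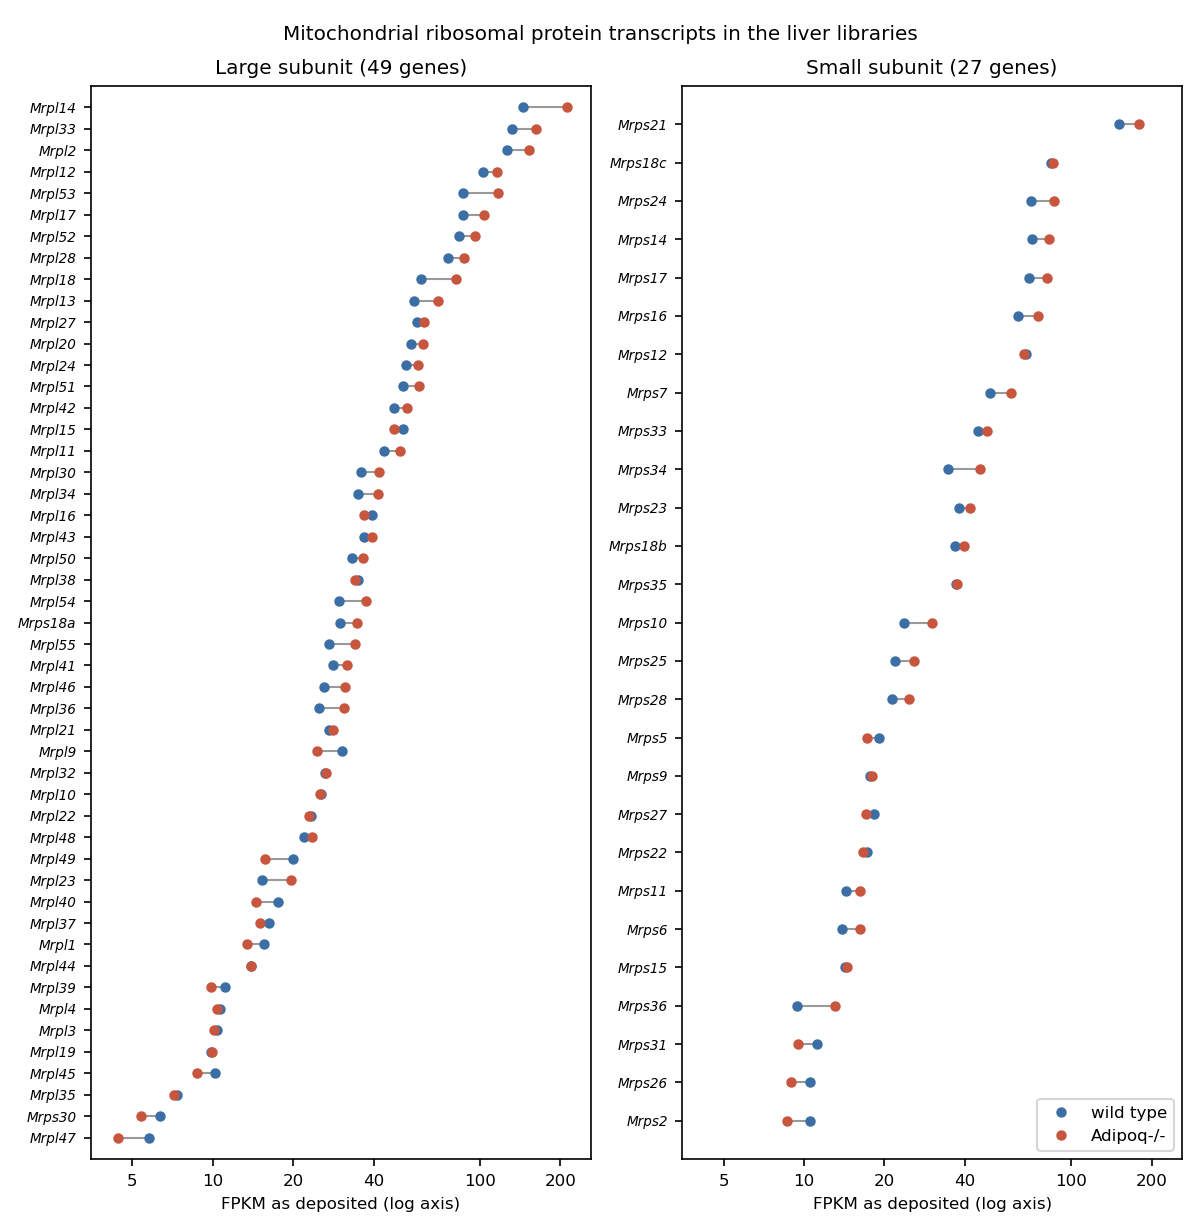
Each line is 1 of the 76 genes, ordered by mean level within the large subunit (left) and small subunit (right); points give FPKM as deposited in the wild-type (blue) and Adipoq-/- (red) library on a log axis. The abundant genes at the top mostly have the knockout point to the right. Of the 19 least abundant members 13, such as Mrpl47 and Mrps2, have it to the left, and 6, such as Mrps36, to the right. Among all genes 66.9% were lower in the knockout library as deposited, so these 19 were near the share of all genes.

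The 8 most abundant members, by the mean of both libraries, were all higher in the knockout library as deposited, against 33.1% of all genes. They were also all higher with FPKM rescaled to equal sums, against 22.0% of all genes. Mrpl14, a protein of the face where the subunits meet, was 145 FPKM in wild type against 213 in the knockout pool (relative log2 ratio 0.70). Mrps21, a small-subunit protein with a bacterial counterpart, was 151 and 180 FPKM (0.40). Mrpl33, one of the smallest large-subunit proteins, was 132 and 162 FPKM (0.44), and Mrpl2, which lies near the catalytic centre, was 126 and 153 FPKM (0.43). These genes carried both the highest levels and ratios above the family median. Mrpl12, the stalk protein that recruits translation factors, was 103 and 116 FPKM (0.32). Mrpl53 was 86.4 and 117 FPKM (0.59), Mrpl17 86.7 and 103 FPKM (0.40), and Mrpl52 83.3 and 95.7 FPKM (0.35). The smallest of the 8 after rescaling was the log2 ratio of Mrpl12, 0.01. Against genes of like length and like FPKM, Mrps21 (-0.09), Mrpl33 (-0.06) and Mrpl52 (-0.15) lay below 0 and the others of the 8 above it.

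After Mrpl14 and Mrpl53, the highest ratios belonged to less abundant genes. Mrps36 was 9.40 FPKM in wild type against 13.1 in the knockout pool (0.59). Its product is now regarded as part of the oxoglutarate dehydrogenase complex and not of the ribosome. Mrpl18, a protein of the central protuberance, was 60.0 and 81.0 FPKM (0.58). Mrps34, a small-subunit protein without a bacterial counterpart, was 34.6 and 45.4 FPKM (0.53). Mrpl23, at the exit of the peptide tunnel, was 15.3 and 19.7 FPKM (0.50), Mrps10 was 23.7 and 30.0 FPKM (0.48), and Mrpl54 was 29.6 and 37.4 FPKM (0.48). Mrps36 and Mrpl23 have pseudogene copies in the tables, so reads may have been split between copies. All exon bases of Mrpl53 (100%) are shared with the annotated gene model Gm42688.

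The lowest ratios were small. Mrpl49, a mitochondria-specific large-subunit protein, was 19.9 FPKM in wild type against 15.6 in the knockout pool (-0.18). Mrpl47, near the tunnel exit, was 5.76 and 4.40 FPKM (-0.17), and Mrpl9 was 30.3 and 24.6 FPKM (-0.14). Mrpl40, of the central protuberance, was 17.5 and 14.5 FPKM (-0.11). In the small subunit, Mrps2 was 10.5 and 8.64 FPKM (-0.11), Mrps31 11.2 and 9.50 FPKM (-0.07), and Mrps26 10.6 and 8.94 FPKM (-0.07). Mrpl45, which anchors the ribosome to the inner membrane, was 10.2 and 8.69 FPKM (-0.05). Of these, Mrpl49, Mrpl47, Mrpl9, Mrpl40, Mrps2 and Mrps31 were the 6 members that lay below the reference in every setting that gave them a value. The share of all genes that did so is not given here.

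The subunits did not separate. The 49 large-subunit genes had a median relative log2 ratio of 0.29, with 41 above the all-gene median, and the 27 small-subunit genes a median of 0.28, with 24 above it. With FPKM rescaled to equal sums these medians were -0.02 and -0.03. Mrps18a and Mrps30 were counted with the large subunit, where their proteins sit in the structure. Large-subunit proteins with a bacterial counterpart had a median of 0.30 (27 of 30 above the all-gene median), and those without one 0.25 (14 of 19). In the small subunit these values were 0.35 (15 of 16) and 0.25 (9 of 11). With equal sums the 4 medians were -0.01, -0.06, 0.05 and -0.05 in this order. Mrps18a and Mrps18b, although relatives of bacterial S18, were counted with the proteins without a counterpart. Mrps36, now regarded as no ribosomal protein, was counted with the small-subunit proteins without one and had the highest ratio there (0.59). The values overlapped widely between the classes, and no test of the difference is possible with 1 library per genotype.

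Within the large subunit, ratios also varied between neighbours. At the stalk and its base, Mrpl12, Mrpl11 and Mrpl10 had ratios of 0.32, 0.34 and 0.14, with Mrpl11 at 43.7 and 50.0 FPKM and Mrpl10 at 25.4 and 25.2 FPKM. The 7 proteins around the exit of the peptide tunnel had a lower median of 0.12 and lay on both sides of the all-gene median. There, Mrpl23 (0.50) and Mrpl24 (52.8 and 58.6 FPKM, 0.30) were higher. Mrpl44 (13.8 FPKM in both, 0.15) and Mrpl22 (23.4 and 22.8 FPKM, 0.12) lay between. Mrpl39 (11.1 and 9.87 FPKM, -0.01), Mrpl45 and Mrpl47 were at or below the all-gene median. Against genes of like transcript length the median of these 7 was 0.05, next to 0.09 for the large subunit. On that scale Mrpl22 was the lowest of the 7 (-0.23), and Mrpl39 (0.05) and Mrpl45 (0.02) lay above 0. In the central protuberance, which contacts tRNAs and the small subunit, ratios ran from -0.11 for Mrpl40 to 0.58 for Mrpl18. Between them were Mrpl46 (26.0 and 31.3 FPKM, 0.41), Mrpl48 (22.0 and 23.6 FPKM, 0.25), Mrpl27 (57.9 and 61.9 FPKM, 0.25) and Mrpl38 (35.0 and 34.2 FPKM, 0.12). Ratios thus differed among proteins of the same region.

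Mammals have 3 relatives of the bacterial protein S18, encoded by Mrps18a, Mrps18b and Mrps18c. Mrps18c was the most abundant at 83.7 FPKM in wild type against 85.8 in the knockout pool (0.19). Mrps18b was 36.8 and 39.6 FPKM (0.25), and Mrps18a 29.9 and 34.6 FPKM (0.36). The order of the levels was the same in both libraries and opposite to the order of these ratios. Against genes of like transcript length the order changed, with -0.16 for Mrps18c, 0.09 for Mrps18b and 0.07 for Mrps18a. Other annotated genes overlap 59.1% of the exon bases of Mrps18b and 18.5% of those of Mrps18c.

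Ratios within the family moved with transcript length, as they did over all genes. Across the 76 members, the Spearman rho of the log2 ratio was -0.521 with transcript length, -0.629 with coding length and 0.593 with mean FPKM. Across 11551 genes with a length, rho was -0.452 with transcript length and 0.198 with mean FPKM, and across 9576 genes it was -0.385 with coding length. Across 78 cytosolic ribosomal proteins, rho was -0.172 with transcript length, -0.048 with coding length and 0.329 with mean FPKM. These are correlations across genes of the same libraries, given as a description. Members were short, with a median transcript of 1221 bases against 2085 for all genes. Among the 19 members with the shortest transcripts, 19 of 19 lay above the all-gene median (list median 0.39, and 0.09 with equal sums). Among the 19 with the longest, 12 of 19 did (0.12, and -0.17 with equal sums).

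Set against genes of like transcript length, the family's median was 0.09, with 59 of 76 above the median of their length bin, against 50.0% of all genes. At least 1.2-fold higher on this scale were 19 members (25.0%, against 16.2% of all genes), and at least 1.2-fold lower was 1, Mrpl40 (1.3%, against 15.4%), named here after its value was seen. Against genes of like length and like FPKM together, the median was 0.10 with 54 of 76 above. Among the 1155 genes from 543.5 to 920.5 bases, which included 21 members, the members' median relative ratio was 0.36 and that of all genes 0.31. From 922 to 1327 bases, the 18 members had a median of 0.30 and all genes 0.11. Up to 543 bases, the 4 members had a median of 0.38 and all genes 0.40. Median ratios were thus above 0 for all genes in these bins of short transcripts too. The part of length in the difference was not tested, and the sources used here do not give the lengths behind the deposited FPKM.

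**Figure D2:**
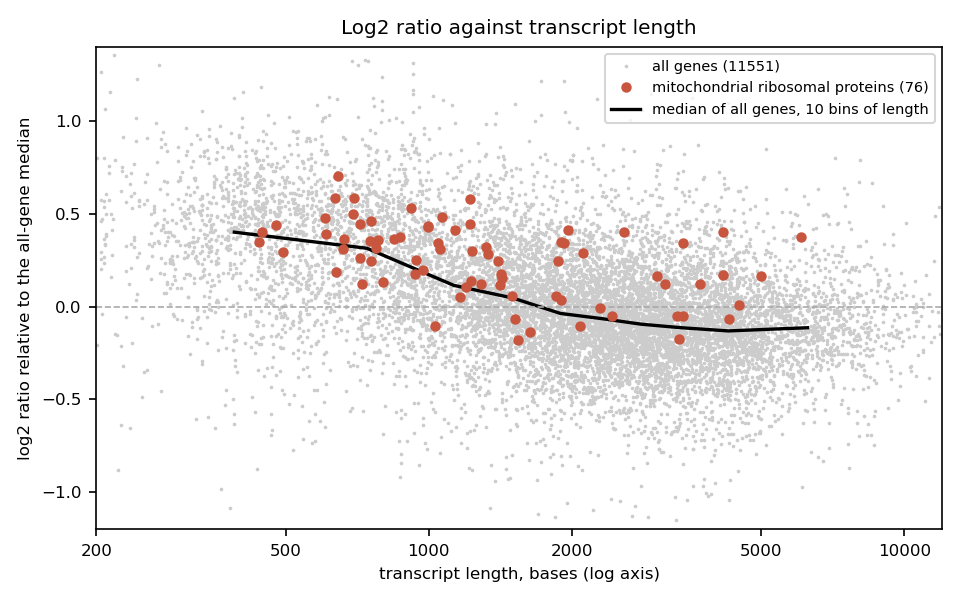
Log2 ratio relative to the all-gene median (y) against transcript length in bases on a log axis (x) for all genes with a length (grey) and the 76 members (red); the black line joins the medians of all genes in 10 bins of length, and a few genes beyond the axes are not drawn. Members lie mostly at short lengths, where the line is above 0, and 59 of 76 lie above the median of genes of like length; with FPKM rescaled to equal sums the members' median is -0.02 and that of all genes -0.28.

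On this scale the order within the family changed. Mrpl14 had a ratio of 0.35, Mrpl53 0.24 and Mrps36 0.24, whereas Mrpl18 kept 0.50. Members with long annotated transcripts came to the top, among them Mrpl17 (0.52), Mrps25 (0.50) and Mrps16 (0.49), named after their values were seen. Mrps25 was 22.0 FPKM in wild type against 25.9 in the knockout pool, and 58.2% of its exon bases overlap Nr2c2 on the opposite strand (GENCODE annotation). The sources used here do not state whether counting used strand. Exons of 25 members overlap another annotated gene, and without these and the members with pseudogene copies, 43 of 49 lay above the all-gene median (list median 0.29). The short and abundant Mrps21 (-0.004), Mrpl33 (0.04) and Mrpl52 (-0.06) were at the level of genes of like length. In every setting that gave them a value, 27 members stayed above the reference, among them Mrpl14, Mrpl18, Mrps34, Mrpl12 and Mrps10. All settings use the same 2 libraries, and the share of all genes that stayed above is not given here, so this count has no background. Members that overlap another gene or have a pseudogene copy, Mrpl18 and Mrpl12 among them, have no value in the setting that leaves these out.

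Beyond the symbol rule, 7 further ribosome proteins carry other names, and 5 of 7 lay above the all-gene median (list median 0.37). Ict1, a peptidyl-tRNA hydrolase built into the large subunit, was 74.5 FPKM in wild type against 96.9 in the knockout pool (0.53). Aurkaip1 was 55.4 and 66.9 FPKM (0.42). Dap3, a GTP-binding protein of the small subunit, was 4.88 and 3.74 FPKM (-0.16). The ribosomal RNAs mt-Rnr1 (167 and 194 FPKM, 0.37) and mt-Rnr2 (176 and 203 FPKM, 0.36) lay within the interquartile range of the 76 members. Against genes of like length they were 0.21 and 0.33, next to a median of 0.09 for the 76 members.

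The factors that work with the ribosome had lower ratios than its proteins. Of 13 mitochondrial translation factors, 9 lay below the all-gene median (list median -0.22, and -0.09 against genes of like length). Mtif2, the initiation factor that brings in the first tRNA, was 19.9 FPKM in wild type against 11.3 in the knockout pool (-0.61). Mtfmt, which formylates the initiator tRNA, was 4.21 and 2.34 FPKM (-0.49). Tufm, the elongation factor that delivers tRNAs, was 26.6 and 24.0 FPKM (0.01). Of these 13 factors, 4 were at least 1.2-fold lower (against 16.2% of all genes) and none at least 1.2-fold higher (against 23.7%).

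Among factors that assemble the ribosome, 12 of 21 above the minimum lay above the all-gene median (list median 0.07, also 0.07 against genes of like length). As deposited 6 of 21 were higher, against 33.1% of all genes. With equal sums 2 of 21 were higher, against 22.0% of all genes (list median -0.23, all-gene median -0.28). Mterfd2, which guides a methyltransferase to the assembling ribosome, was 16.5 and 9.14 FPKM (-0.63), and the GTPase gene Gtpbp10 was 4.16 and 5.42 FPKM (0.47). Of 18 mitochondrial aminoacyl-tRNA synthetases and related amidotransferase subunits, which load tRNAs, 9 lay above the all-gene median (list median 0.00). Against genes of like length their median was 0.07. As deposited 4 of 18 were higher, against 33.1% of all genes, and with equal sums 2 of 18, against 22.0% (list median -0.27). Rars2, which loads arginine, was 10.4 and 6.72 FPKM (-0.41). Mitochondrial transcription and RNA handling had 7 of 11 above the all-gene median (list median 0.05). Against genes of like length 5 of 11 lay above, and the list median was -0.14. The RNA polymerase gene Polrmt was 7.89 and 5.47 FPKM (-0.31), and the processing nuclease Elac2 10.6 and 7.49 FPKM (-0.29). The mRNA stabiliser Lrpprc was 22.4 and 16.3 FPKM (-0.28), and the DNA packaging factor Tfam 23.0 and 21.4 FPKM (0.05). In deposited FPKM, none of these 11 transcription and RNA genes was higher in the knockout library, against 33.1% of all genes.

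Of the regulators of mitochondrial biogenesis, 2 of 8 above the minimum lay above the all-gene median (list median -0.17, and -0.06 against genes of like length). Gabpa, the DNA-binding part of the GA-binding protein, was 15.9 FPKM in wild type against 8.40 in the knockout pool (-0.70). The transcription factor gene Nrf1 was 3.45 and 2.76 FPKM (-0.09), and the coactivator gene Pprc1 was 1.62 and 0.907 FPKM (-0.31). GA-binding protein and NRF1 are known activators of nuclear genes for mitochondrial proteins. The transcripts of Gabpa and Nrf1 were lower in the knockout library as deposited, as were 66.9% of all genes. The relative ratio of Gabpa was at least 1.5-fold lower, which held for 2.61% of all genes. Against genes of like length the ratio of Gabpa was -0.59 and that of Nrf1 -0.04.

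The products translated by this ribosome, the 13 mRNAs of mitochondrial DNA, had 11 of 13 above the all-gene median (list median 0.31). With equal sums this median was 0.001 and 7 of 13 were higher, against -0.28 and 22.0% for all genes. The largest ratios were those of mt-Co3 (13010.5 FPKM in wild type against 16839 in the knockout pool, 0.52) and mt-Co2 (7988 and 9877 FPKM, 0.46). Nuclear-encoded respiratory chain subunits were a list set by symbol after the tables were seen, including ATP synthase subunits and relatives such as Ndufa4l2. Of these genes, 69 of 78 lay above the all-gene median (list median 0.39), with Ndufa3 at 0.84 and the ATP synthase gene Atp5j at 0.73. With equal sums this median was 0.08 and 47 of 78 were higher, against 22.0% of all genes. Against genes of like length these medians were 0.11 and 0.08, next to 0.09 for the mitochondrial ribosomal proteins. Cytosolic ribosomal proteins differed from them by more. All 78 lay above the all-gene median (list median 0.56, and 0.27 against genes of like length), with Rps14 at 0.90 and Rps6 at 0.87, and with FPKM rescaled to equal sums their median was 0.25. At least 1.5-fold higher were 35 of the 78 cytosolic genes and 3 of the 76 mitochondrial ones, against 6.73% of all genes.

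**Figure D3:**
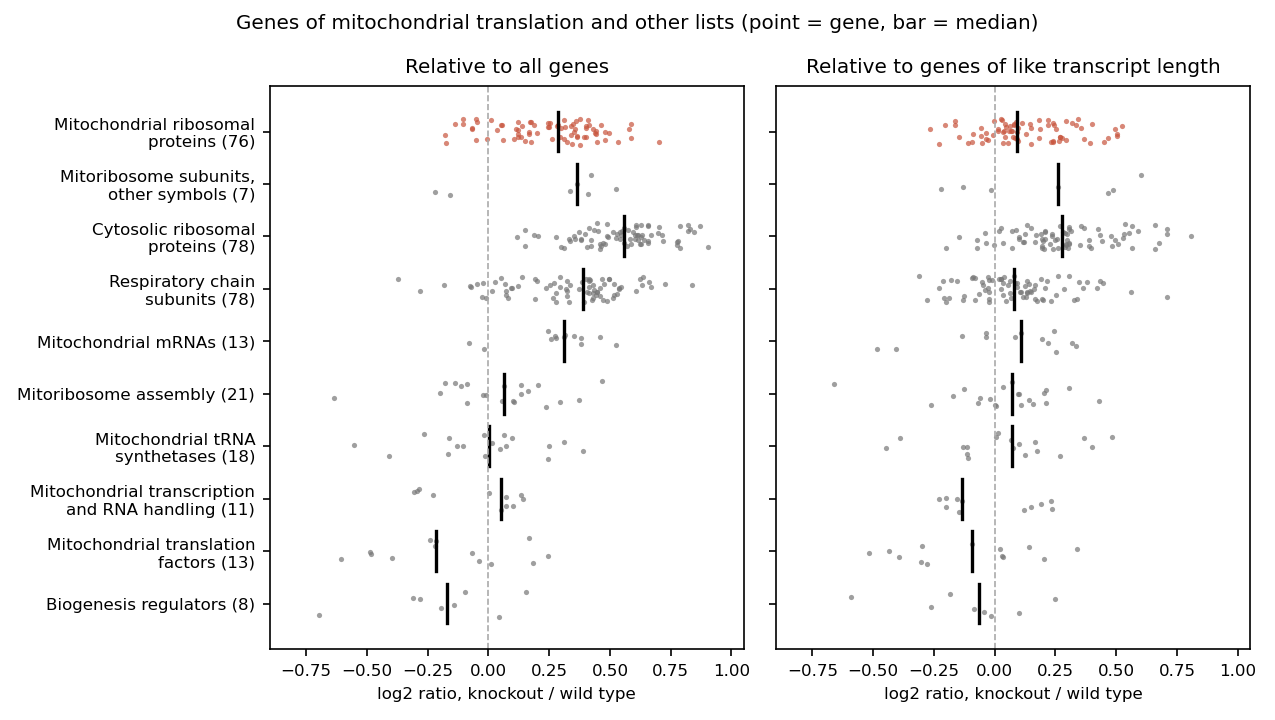
Log2 ratios (knockout over wild type) of each gene in 10 lists, relative to the all-gene median (left) and to genes of like transcript length (right); points are genes, bars are list medians, and the number of genes is in brackets. The mitochondrial ribosomal proteins (red) have a median of 0.28 on the left and 0.09 on the right, between the cytosolic ribosomal proteins at 0.56 and 0.27 and the translation factors at -0.22 and -0.09; with FPKM rescaled to equal sums the red median is -0.02, that of the translation factors -0.52 and that of all genes -0.28.

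Ratios of the head-to-head pairs printed above are set side by side here. The spread between genes that are not paired is not given. Mrpl46 (0.41) and Mrps11 (14.4 FPKM in wild type against 16.2 in the knockout pool, 0.31) lay close together, and so did Mrps27 (18.3 and 17.0 FPKM, 0.06) and Ptcd2 (9.80 and 9.45 FPKM, 0.10). Mrpl14 (0.70) and Tmem63b (21.1 and 15.2 FPKM, -0.30) lay far apart, although 63 bases separate their annotated starts. Mrpl49 (-0.18), the member with the lowest ratio, lies opposite Fau (206 and 302 FPKM, 0.70), which encodes a cytosolic ribosomal protein. Mrpl43 (36.8 and 39.4 FPKM, 0.25) and Twnk (4.94 and 3.93 FPKM, -0.12) also differed in sign. The pairs of Mrpl46, Mrps27 and Mrpl43 were named after their values were seen.

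Over the 16 pairs whose partner was above the minimum and no member itself, the member had the higher ratio in 10, with medians of 0.25 for members and -0.01 for partners. The partners' transcripts were longer, with a median of 2871 bases against 985. Against genes of like length, the member was higher in 8 of 16, with medians of 0.08 and 0.03. Members with a head-to-head partner had a median of 0.25 and the others 0.30, so the ratio was much the same with and without one.

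**Figure D4:**
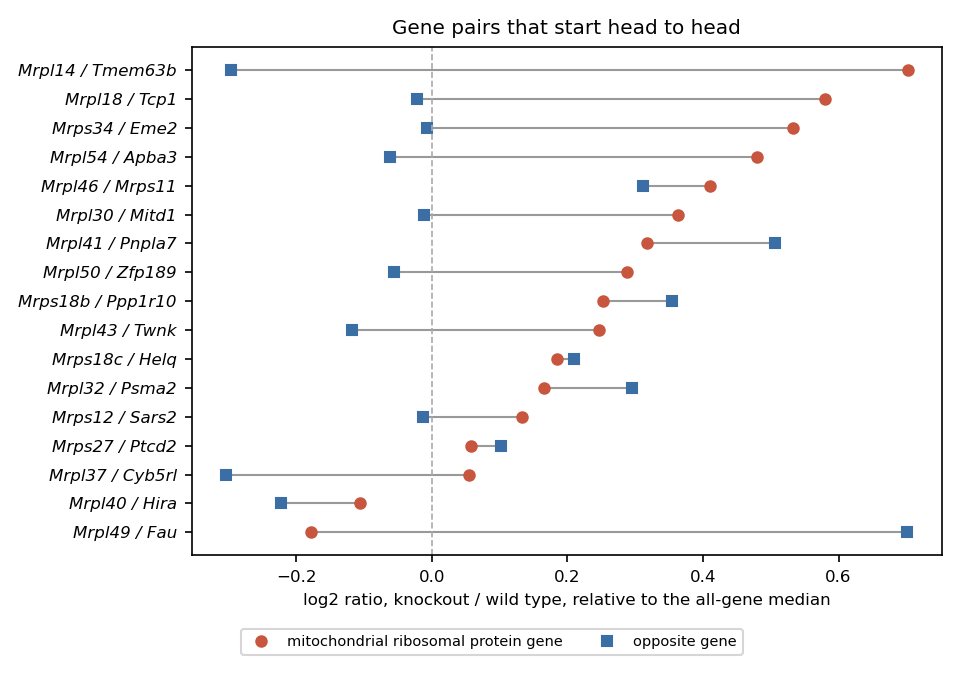
Log2 ratio relative to the all-gene median for each mitochondrial ribosomal protein gene (red circles) and the gene that starts head to head with it (blue squares), for the 17 pairs in which both passed the minimum. The pair of Mrpl46 and Mrps11 lies close together at 0.41 and 0.31, and Mrpl14 with Tmem63b and Mrpl49 with Fau are the most widely separated.

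Promoter windows of 300 bases, from 250 before to 50 after the RefSeq start, were at hand for 67 members and 7639 genes in all. The ETS core CCGGAAG was in 34.3% of the members' windows and in 20.3% of all. The core of the site of NRF1, GCATGCGC was in 11.9% and 5.84%, and AAGATGG, part of the site of YY1, in 19.4% and 8.06%. Both strands were searched, and the ETS and YY1 motifs can overlap by the letters AAG. At least 1 of the 3 was in 35 of 67 member windows (52.2%), against 30.6% of all. Members with any motif had a median ratio of 0.25 and those without one 0.32. Among cytosolic ribosomal proteins the shares were 38.6%, 5.26% and 15.8%. A match describes the letters of a window, not a bound site.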

How the data were processed

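RNA pooled from 9 to 10 mice per genotype was sequenced as 1 library each. The values are FPKM as the authors deposited them, 1 per gene symbol and library; the submitters' processing notes name TopHat, Cuffdiff and the builds mm9 and NCBIM37. Of 13352 rows, 26 symbols stood in 2 rows, and the higher of both means decided which row stayed. Genes with at least 1 FPKM in a library were used, with a pseudocount of 1 FPKM, so ratios of low genes are understated. Whole reads could not be recovered: at most 5 of 1298 low genes shared a ratio to 3 decimals.

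Transcript lengths are medians of coding transcripts in GENCODE M21 (GRCm38), which is not the authors' build; 12803 symbols matched. Genes of like length are those of the same of 20 bins. Members described in full are the 8 most abundant, the 8 highest, the 8 lowest and the structural lists; of other lists, the 2 genes farthest from 0 and Tufm, Lrpprc, Tfam, Nrf1, Gabpa, Dap3 and Ict1; 1 gene that this rule names is not reported here. Members and lists were chosen with earlier results of these data known. Promoters are from RefSeq, and 62 of 67 member windows shared sequence with the early part of the annotated transcript, not always at its first base. The window's start lay 643 bases from the GENCODE start for Mrpl20 and 622 for Mrpl1, and on it for others such as Mrpl2. The calculation was tested on simulated data (Python 3.11.15, numpy 2.4.6, pandas 2.3.3). Alternatives covered pseudocount, minimum, scaling, length and abundance, and 5 of them were added after seeing the data.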

Additional observations from a re-analysis of the deposited data

How the results depend on the processing

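The median log2 ratio of the 76 mitochondrial ribosomal proteins (0.28), of the 49 large-subunit genes (0.29) and of the 27 small-subunit genes (0.28) kept its sign under every setting except FPKM rescaled to equal sums. That setting gave -0.0231, -0.0195 and -0.0267, with 35 of 76 genes higher (46.1%). Under it the all-gene median was -0.28 with 22.0% of genes higher, so that the family's median lay 0.25 above that of all genes. In the same order, the medians were 0.13, 0.14 and 0.13 for FPKM as deposited without centring. They were 0.0908, 0.0872 and 0.0955 relative to genes of like transcript length, and 0.16, 0.13 and 0.17 relative to genes of like mean FPKM. Among the settings added after seeing the data, they were 0.12, 0.11 and 0.12 with the longest principal transcript, 0.11, 0.11 and 0.12 with coding length, and 0.10, 0.10 and 0.12 with length and mean FPKM together. They were 0.0744, 0.0778 and 0.0710 with equal sums without the Mup genes, which encode abundant urinary proteins. Without members that overlap another gene or have a pseudogene copy, 43 of the remaining 49 genes lay above the all-gene median. The median of the respiratory chain subunits was -0.0048 relative to genes of like length and mean FPKM. The cause was not tested. No paired analysis was possible because each genotype has 1 library without a replicate number, and no library could be left out for the same reason. Depth is unknown, so counting error could not be given.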

Other observations

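The tables list 4 pseudogene copies of mitochondrial ribosomal protein genes, which were not counted as members. Mrpl23-ps1 was 27.1 FPKM in wild type against 32.1 in the knockout pool (relative log2 ratio 0.39), above its parent Mrpl23 in level. Mrpl48-ps was 17.0 and 17.7 FPKM (0.21). Mrps36-ps1 was 9.87 and 10.7 FPKM (0.26), and Mrps36-ps2 was 8.52 and 14.1 FPKM (0.82). Reads of these copies and of their parents cannot be told apart here.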
